A study of Mus musculus with 15 samples.

Results

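Bc1, a short noncoding RNA of neurons, and 7 messenger RNAs of dendrites and synapses (Camk2a, Arc, Map2, Ddn, Shank1, Dlg4 and Nrgn) were followed in RNA immunoprecipitation (RIP) libraries of mouse fibroblasts and cortex. These 8 genes of 31017 were chosen by symbol, with their levels by antibody, tissue and genotype in these same libraries known. The values below are therefore a description of these libraries, and the fitted p-values are given as such and support nothing independently. All 8 had an entry in each of the 15 libraries and all 8 passed the filter on low counts in every fit. Bc1 passed it in the comparison of antibodies only through the libraries where it was high.

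Dnmt1 encodes the enzyme that keeps up DNA methylation through cell division, and the series compared mice with a dominant Dnmt1 mutation with wild type (WT) littermates. The labels call the other genotypes Het and Hom and give no further allele, age or cortex donor. In the Dnmt1 RIP, RNA was pulled down with anti-Dnmt1 from tail fibroblast lines of littermates of 1 sex after fixation in 1% formaldehyde, in 2 libraries for each of WT, Het and Hom. In the m5C RIP, messenger RNA was pulled down with an antibody to the modified base 5-methylcytosine (m5C). Fibroblasts gave 2 WT libraries, 1 Het and 1 Hom, and cortex gave 1 for each genotype. Each tissue also has 1 library titled input, with no genotype and with IgG in its antibody label, called input here. The labels do not say how many lines or animals stand behind the libraries, so p-values measure only how these libraries vary, and that variation may be technical. Without an input per genotype, RNA pulled down and RNA abundance cannot be told apart, and in a bulk sample neither can fewer cells of a type and less RNA per cell.

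Bc1 is transcribed by RNA polymerase III, arose by retroposition of a transfer RNA, and is carried into dendrites, where it is known as a repressor of translation initiation. Camk2a, Arc, Map2, Ddn, Shank1, Dlg4 and Nrgn encode proteins of dendrites or the postsynaptic density, and the messenger RNAs of several of them are transported into dendrites and translated near synapses. Arc is also an immediate early gene, induced by neuronal activity. Fibroblasts are not a known site of expression of most of these genes.

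Total gene counts ran from 217173 to 4913482 per library. Between 4.01 and 63.5% of them fell in 4 genes (Lars2, Gm42418, Gm26917 and Gm10800), so CPM, the count scaled to library size, takes all other gene counts of a library as its total. Fibroblast input is shallow, with 6006 genes detected and 246 counts in all 8 genes together. Fibroblast m5C WT library 1 was nowhere below the Hom library in its counts over 31017 genes and equalled it in 7163 of the 19511 genes detected in Hom. That WT library was therefore left out of the fits. Among the Dnmt1 RIP libraries, WT library 1 stands apart with fibroblast markers at a summed 642 CPM, within the sums of cortex m5C RIP (621 to 698). Only the sum matched, since its median fibroblast marker was at 158% of the mean cortex m5C level. Hom library 1 has the largest share of counts in the 4 genes (63.5%). Dnmt1 itself was read in every library, which does not check the genotype labels. It stood at 2048 to 3943 CPM in 5 Dnmt1 RIP libraries and at 10154 in Hom library 2, at 413 to 735 in 3 fibroblast m5C libraries and at 10690.2 in WT library 1, and at 1166 to 1736 in cortex m5C RIP.

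The Bc1 transcript is shown because its shape sets it apart from the 7 messenger RNAs: it is 168 bases long, with a stretch rich in adenine inside it. The gene is a lincRNA of 1 exon on mm10 at chr7:144914470-144914637, plus strand, with no overlapping gene in GENCODE M21, from which the sequence was taken. Capitals mark the A-rich stretch, the longest stretch that starts and ends in A and holds at least 80% A, at positions 77 to 136 counted from the 5′ end, in which 49 of 60 bases are A and the longest run of A is 23.
Bc1: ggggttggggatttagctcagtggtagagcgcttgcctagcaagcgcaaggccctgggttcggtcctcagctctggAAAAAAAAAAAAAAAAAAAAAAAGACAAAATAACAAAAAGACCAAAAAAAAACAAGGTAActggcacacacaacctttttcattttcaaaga

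The transcript holds 32 C (19.0% of its bases), against 22.5 to 34.1% C in the longest transcripts of the 7 messenger RNAs. Its 5′ part is known to resemble transfer RNA and the rodent ID repeat elements, and no source used here says how reads with several matches were counted, so its counts are uncertain in level.

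Bc1 was most abundant in cortex input. It stood there at 1252 CPM (5729 counts), and cortex m5C RIP of WT held 423 CPM (520 counts), of Het 125 (171) and of Hom 397 (914). The Dnmt1 RIP of WT fibroblasts gave 104 and 49.2 CPM, that of Het 66.8 and 21.1, and that of Hom 85.1 and 23.5, on 16 to 40 counts a library. The first library of each genotype was above the second, and the genotypes overlapped. In fibroblast m5C RIP it was read on few counts. The WT libraries held 8.72 and 3.43 CPM, the Het library 1.93 and the Hom library 4.37, on 7, 4, 4 and 3 counts. Fibroblast input had 5 counts (52.6 CPM, 95% exact Poisson interval 17.1 to 123, counting error only).

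Camk2a (Ca2+/calmodulin-dependent kinase II alpha, the classic dendritic messenger RNA; chromosome 18, 60925618 to 60988152) fell into 3 steps of level. Cortex m5C RIP of WT held 2860.2 CPM, of Het 2418 and of Hom 2636, with 2092 in cortex input. The Dnmt1 RIP gave 1548 and 932 CPM for WT, 896 and 869.6 for Het, and 1342 and 844 for Hom. Fibroblast m5C RIP gave 253 and 228 CPM for WT, 147 for Het and 251 for Hom, and fibroblast input 673. Every cortex library was above every Dnmt1 RIP library, and each of these was above every fibroblast m5C library.

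Map2, which encodes a microtubule-associated protein of dendrites (chromosome 1, 66175273 to 66442583), showed the same 3 steps. It was at 1556, 1498 and 1513 CPM in cortex m5C RIP (WT, Het, Hom) and 1642 in cortex input. Its Dnmt1 RIP levels were 890.3 and 602 CPM (WT), 533 and 560.0 (Het) and 776 and 652 (Hom). Its fibroblast m5C levels were 222 and 116 CPM (WT), 80.4 (Het) and 189.6 (Hom), with 231 in input. An antisense gene, Gm10558, overlaps its exons on the other strand and had 0 to 34 counts. No source used here says whether counting used strand.

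Shank1 (chromosome 7, 44310253 to 44360572) and Dlg4, which encodes PSD-95 (chromosome 11, 70016942 to 70047522), are scaffolds of the postsynaptic density. Shank1 stood at 1995, 1396 and 1425 CPM in cortex m5C RIP (WT, Het, Hom) and 1510.3 in cortex input. Its Dnmt1 RIP levels were 963 and 772 CPM (WT), 573 and 657 (Het) and 973 and 752 (Hom), and its fibroblast m5C levels 168 and 198 (WT), 112 (Het) and 168 (Hom), with 715 in fibroblast input. Both Het libraries of the Dnmt1 RIP and that of fibroblast m5C RIP were the lowest of their assay.

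Dlg4 had the smallest fold range of the 8 over the 15 libraries. It was read at 771, 616 and 677 CPM in cortex m5C RIP, 672 in cortex input, 518 and 312 (WT), 326 and 304 (Het) and 455 and 403 (Hom) in the Dnmt1 RIP. Fibroblast m5C RIP held 166 and 205 CPM (WT), 172 (Het) and 156 (Hom), and fibroblast input 73.6 on 7 counts. The Dnmt1 RIP and fibroblast m5C libraries did not overlap here either, but lay closer than for the other messenger RNAs.

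Nrgn (neurogranin, a postsynaptic calmodulin-binding protein; chromosome 9, 37544492 to 37552904) was read at 1193, 739 and 999 CPM in cortex m5C RIP and 808 in cortex input. It stood at 564 and 359 (WT), 368 and 435 (Het) and 516 and 516 (Hom) in the Dnmt1 RIP, and at 141 and 88.4 (WT), 73.7 (Het) and 150.2 (Hom) in fibroblast m5C RIP. Ddn (dendrin, a postsynaptic and kidney podocyte protein; chromosome 15, 98803777 to 98809490) stood at 1099, 909.8 and 943 CPM in cortex m5C RIP, 696 in cortex input, 334 to 543 in the Dnmt1 RIP and 56.8 to 125 in fibroblast m5C RIP. Arc (activity-regulated cytoskeletal protein; chromosome 15, 74669083 to 74672570) stood at 436, 289 and 316 CPM in cortex m5C RIP, 346 in cortex input, 166 to 258 in the Dnmt1 RIP and 32.7 to 52.4 in fibroblast m5C RIP. In fibroblast input Nrgn stood at 484 CPM (46 counts), Ddn at 326 (31) and Arc at 31.5 (3). Ddn and Shank1 also share exonic bases with genes on the other strand, B130046B21Rik (0 to 11 counts) and 1700008O03Rik (0 to 7).

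**Figure D1:**
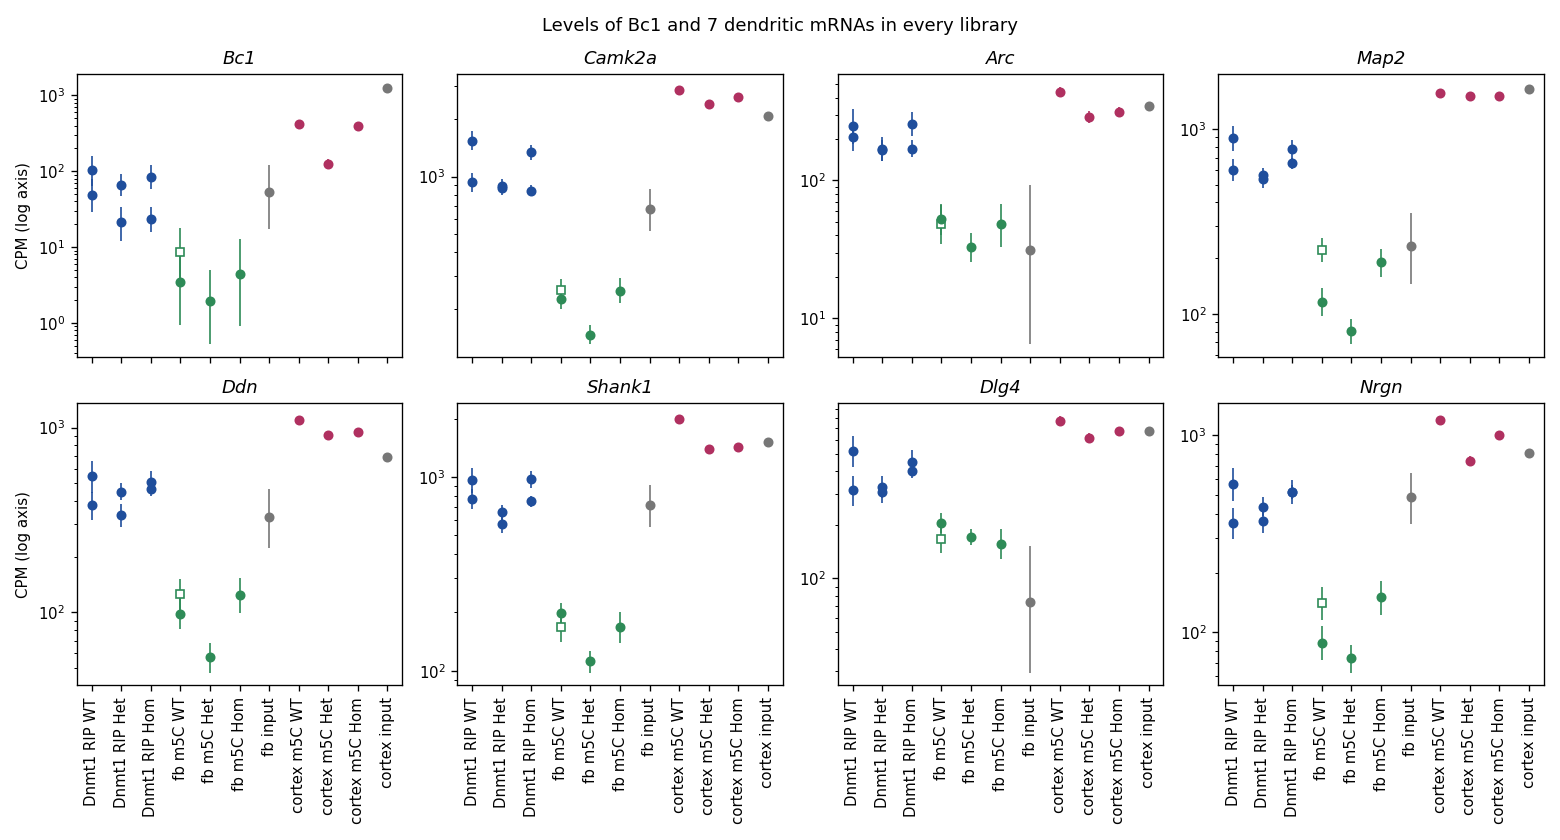
CPM of each gene (log axis, with its own range per panel) by group, 1 point per library with its 95% exact Poisson interval; the open square is fibroblast m5C WT library 1. In every panel the cortex libraries lie above the Dnmt1 RIP libraries and these above the fibroblast m5C libraries, and Bc1 spans 1.93 to 1252 CPM.

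Per kilobase of exon, the 4 cortex libraries all gave 1 order of levels: Bc1, Nrgn, Camk2a, Ddn, Shank1, Arc, Map2, Dlg4. The length used was the union of a gene's exons over all its annotated transcripts. That was 16449 bases for Map2, whose longest transcript has 6258, but 3057 for Arc, whose longest has 3055. The order, and the place of Map2 in it, therefore depends on this choice of length. In cortex m5C RIP the level per kilobase ran from 741 to 2516 for Bc1 and from 509 to 821 for Nrgn. The others ran 324 to 383 (Camk2a), 241 to 291 (Ddn), 133 to 189.8 (Shank1), 94.6 to 143 (Arc), 91.1 to 94.6 (Map2) and 46.5 to 58.2 (Dlg4). Over the 3 libraries the ranges of Bc1 and Nrgn overlapped, as did those of Shank1 and Arc, Arc and Map2 met at 94.6, and the other neighbours did not overlap. The order of the Dnmt1 RIP libraries matched that of cortex in 3 of 6 and differed by swaps of neighbours in the other 3. In the fibroblast m5C libraries Nrgn led and Dlg4 was no longer last, except in WT library 1.

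In cortex, Bc1 was lower in m5C RIP than in input. It was 2.89-fold lower in the WT library than in input, 9.89-fold lower in Het and 3.07-fold lower in Hom, on TMM-scaled CPM with a prior count of 2. A difference of at least 2-fold lower in all 3 genotypes was met by 0.658% of 13518 genes and by 1 of the 8, Bc1. The m5C/input ratios of the 7 messenger RNAs lay between 0.845 and 1.61, with Ddn highest (1.61 in WT, 1.32 in Het, 1.39 in Hom) and Map2 near 1 (0.969, 0.921 and 0.946). Of the counts of all 8 genes, Bc1 held 13.9% of cortex input (exact binomial interval 13.5 to 14.2%) and 4.09, 1.56 and 4.46% of cortex m5C RIP in WT, Het and Hom. The m5C RIP started from messenger RNA isolated on oligo-dT beads; whether the input did is not given, so antibody and RNA purification cannot be told apart.

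**Figure D2:**
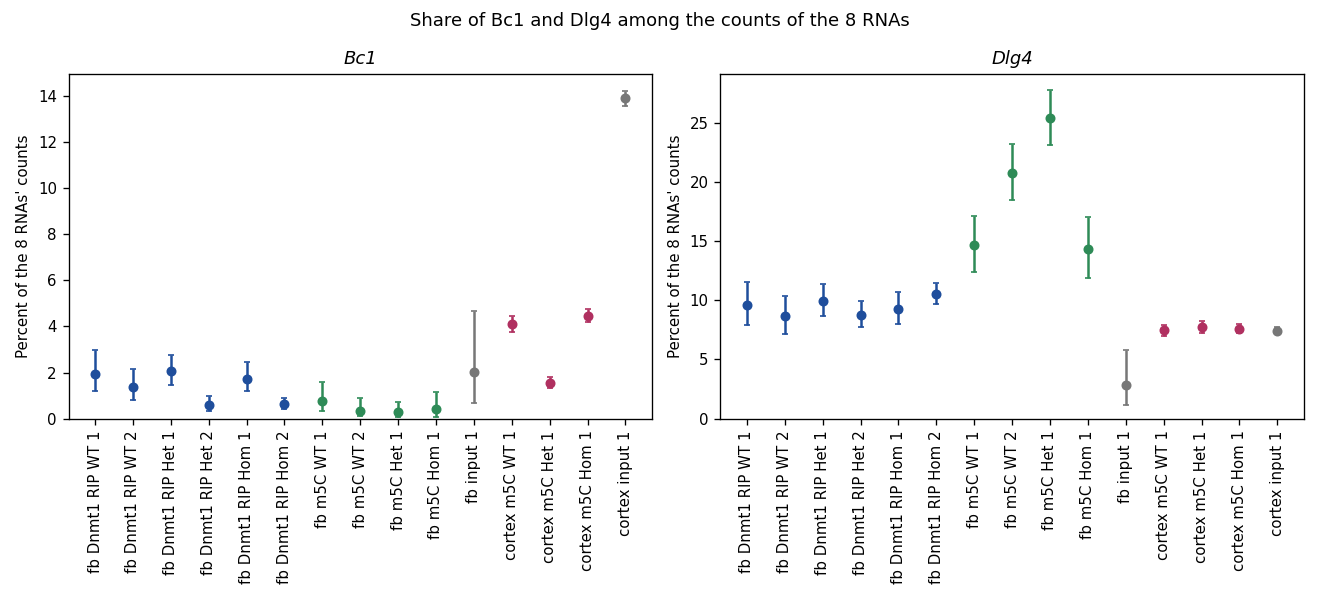
Share of Bc1 (left) and Dlg4 (right) among the counts of the 8 genes in each library, in percent, with 95% exact binomial intervals that cover counting error only. Bc1 reaches 13.9% in cortex input and stays under 5% elsewhere, and Dlg4 holds 14.3 to 25.4% in fibroblast m5C RIP against 7.46 to 7.71% in cortex m5C RIP.

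Between tissues, the m5C RIP of cortex exceeded that of fibroblasts at each genotype for all 8 genes. Bc1 was 80.3-fold higher in WT, 34.4-fold in Het and 65.5-fold in Hom, resting on 4, 4 and 3 fibroblast counts. Camk2a was 11.1-, 14.3- and 9.77-fold higher and Map2 11.8-, 16.1- and 7.41-fold. Dlg4 differed least, at 3.32-, 3.13- and 4.03-fold. In all 3 genotypes, 7 of the 8 (all but Dlg4) were at least 4-fold higher in cortex, beside 8.78% of 12275 genes; the tissue was in view when the genes were picked, and nothing is read from that count.

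All 8 genes were nonetheless read in fibroblast libraries, together with other brain RNAs. Set against the mean cortex m5C level, the summed CPM of the 8 was 36.0 to 59.2% in the Dnmt1 RIP, 7.45 to 12.5% in fibroblast m5C RIP and 28.5% in fibroblast input. The 10 neuron markers were at a median of 40.5 to 69.4% in the Dnmt1 RIP and 6.21 to 12.5% in fibroblast m5C RIP, and none was at 0 counts there (2 of 10 in fibroblast input). Snap25, a synaptic vesicle fusion gene, had 673 to 978 CPM in the Dnmt1 RIP, 91.5 to 204 in fibroblast m5C RIP and 1838 to 2074 in cortex m5C RIP. Astrocyte markers were at 37.1 to 66.5% and 7.25 to 14.4%, and oligodendrocyte markers at 32.0 to 56.5% and 5.72 to 11.2%, in the same order of assays. The ratio of the 7 messenger RNAs to the neuron markers, both as summed CPM, was 1.19 to 1.38 in the Dnmt1 RIP, 1.35 to 1.66 in fibroblast m5C RIP and 1.22 to 1.50 in cortex m5C RIP.

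Fibroblast markers moved the other way. Their summed CPM was 25765 to 32259 in fibroblast m5C RIP, 642 to 22503 in the Dnmt1 RIP, 621 to 698 in cortex m5C RIP and 2092 in fibroblast input. The library labelled WT Dnmt1 RIP 1 had the lowest sum of the Dnmt1 RIP, within the range of the cortex sums. Col1a1, a collagen gene of fibroblasts, was there at 171 CPM (33 counts), above the 27.7 to 43.1 of cortex m5C RIP. The other 5 Dnmt1 RIP libraries had Col1a1 at 346 to 14266 CPM. Among the Dnmt1 RIP libraries, WT library 1 also had the highest summed CPM of the 8 genes (59.2% of the cortex level). Macrophage markers were at 3255 to 5917% of the cortex level in fibroblast m5C RIP and at 66.6 to 2471% in the Dnmt1 RIP. The part these other RNAs have in the levels of the 8 genes was not tested.

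**Figure D3:**
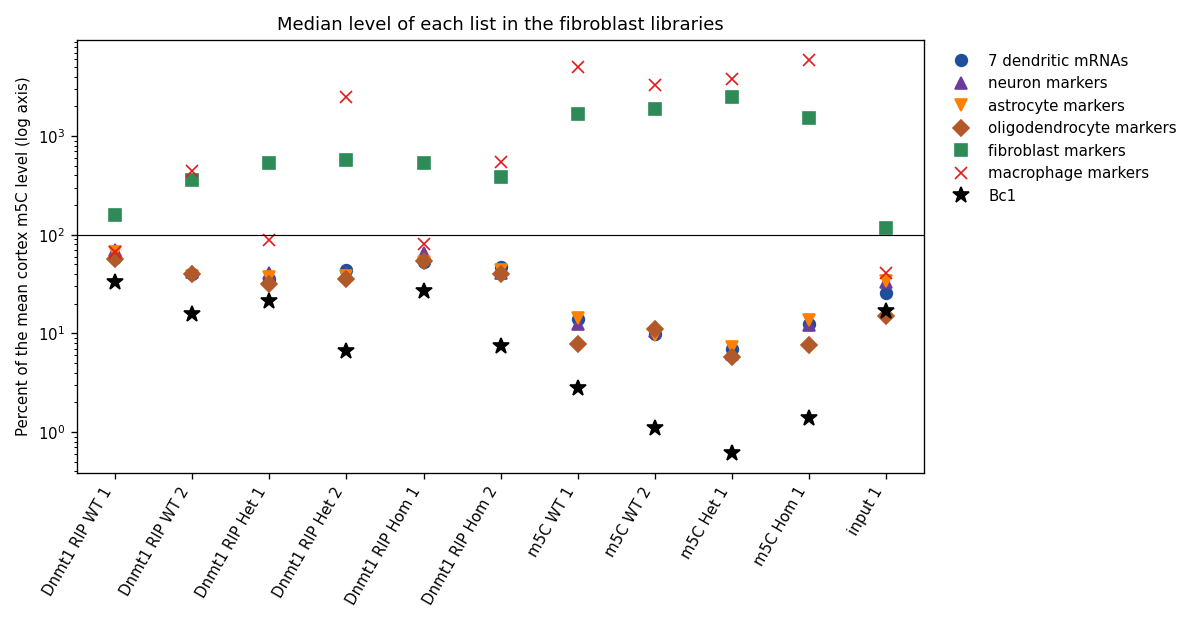
Median level of each gene list, and the level of Bc1, in each fibroblast library as a percent of the mean of the 3 cortex m5C libraries (log axis, line at 100). The 7 messenger RNAs lie with the neuron, astrocyte and oligodendrocyte markers, Bc1 lies below them in each RIP library, and fibroblast markers lie above the line in every library.

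Within fibroblasts, Bc1, Map2, Camk2a, Ddn, Shank1, Arc and Nrgn were higher in the Dnmt1 RIP than in the m5C RIP, and Dlg4 did not pass the test. The edgeR quasi-likelihood fit over 9 libraries (6 and 3, genotype as a covariate, fibroblast m5C WT library 1 left out) gave a log2 difference of 3.68 ± 0.64 (SE) for Bc1, 12.9-fold, with a Benjamini-Hochberg adjusted p of 0.00100. In that fit Bc1 rested on 3 to 4 counts in the m5C libraries, against 16 to 40 in the Dnmt1 RIP. It passed the filter (minimum count 10) only through the Dnmt1 RIP libraries, where it was high. Neither its p-value nor the alternatives below are therefore support for its difference. Camk2a was higher by 1.92 ± 0.38 (adjusted p = 0.00188) and Map2 by 1.98 ± 0.35 (0.00105), and Ddn, Shank1, Arc and Nrgn by 1.73 to 1.86. Dlg4 was 0.65 ± 0.30 (95% interval 0.0041 to 1.29), with an adjusted p of 0.0898. All genes tested gave 23.0% called higher, and since these levels were known when the genes were picked, nothing is read from the 7 of 8. The 7 kept an adjusted p of at most 0.0237 in all 105 values recomputed under the alternatives, each library left out in turn among them, with differences of 1.39 to 3.93. The Dlg4 difference passed with DESeq2 (0.0445) and with fibroblast m5C WT library 1 included (0.0228). In the shallow fibroblast input, Bc1 (52.6 CPM), Shank1 (715) and Nrgn (484) lay within their Dnmt1 RIP ranges (21.1 to 104, 573 to 973 and 359 to 564). Camk2a, Map2, Ddn, Arc and Dlg4 lay below theirs. Whether the difference is a gain in the Dnmt1 RIP or a loss in the m5C RIP was not tested.

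The same fit called 26 of the 30 other dendritic and postsynaptic messenger RNAs higher, among them Gria2 (2.20), Shank3 (1.99), Dlg2 (1.97) and Shank2 (1.72), and 10 of 10 neuron markers, 5 of 6 astrocyte and 5 of 6 oligodendrocyte markers. It called 8 of the 9 fibroblast markers tested and 6 of 6 macrophage markers lower (23.2% of all genes were called lower), with Fn1 at -3.25 and Adgre1 at -3.37. RNA transport and local translation factors split, 10 called higher and 9 lower of 31. Kif5c, a neuronal kinesin, was at 2.06 and Eif4ebp1, a repressor of translation initiation, at -2.80. Of the 20 immediate early genes 5 were higher and 9 lower: Npas4, which is specific to neurons, was at 2.23, Jun at -1.85, Btg2 at -1.62 and Fosl2 at -1.39, while Arc was at 1.75 ± 0.27. The 2 assays also differ in fixation and starting RNA, so antibody and protocol cannot be told apart.

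**Figure D4:**
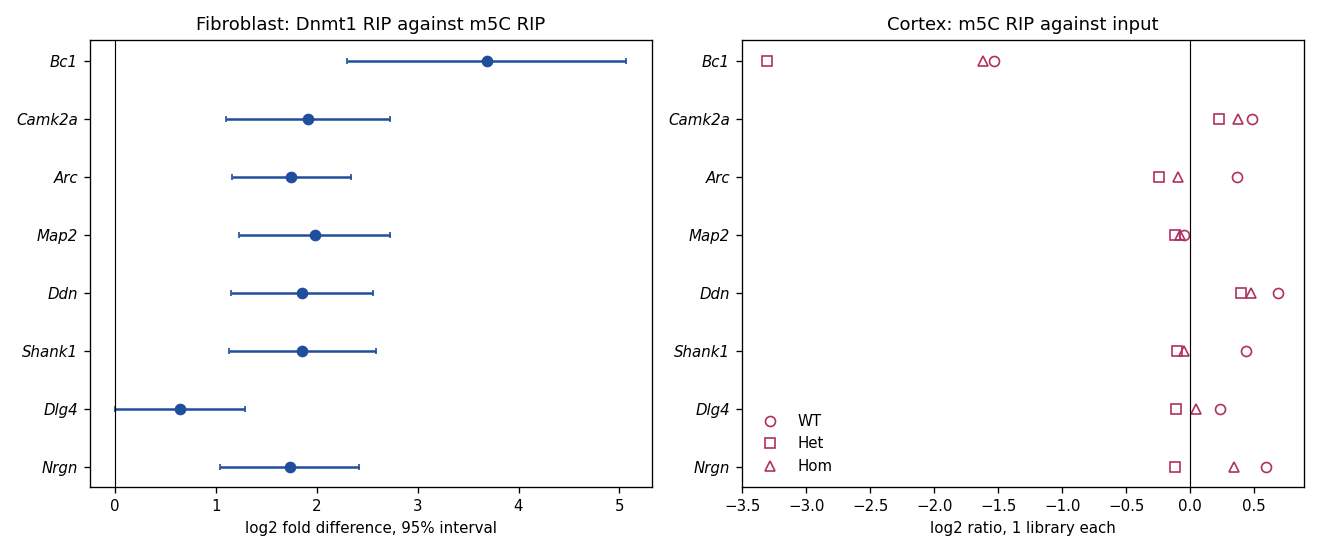
Left, log2 fold difference between the Dnmt1 RIP and m5C RIP of fibroblasts for the 8 genes, with 95% intervals from the edgeR fit; right, log2 ratio of each cortex m5C library to cortex input. Bc1 has the highest value on the left (3.68) and the lowest on the right, and Dlg4 lies nearest to 0 on the left.

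Between genotypes, no member passed the test in the Dnmt1 RIP. Het against WT gave negative log2 differences for all 8, from -0.60 ± 0.75 (SE, 95% interval -2.26 to 1.05) for Bc1 to -0.07 ± 0.45 for Nrgn, with a median of -0.32 against 0.03 for all genes. Camk2a was at -0.35 ± 0.55 and Shank1 at -0.38 ± 0.49. Hom against WT ran from -0.54 ± 0.75 (Bc1) to 0.17 ± 0.45 (Nrgn), with a median of -0.03. Hom against Het gave 0.06 ± 0.73 for Bc1. In each of the 3 comparisons edgeR called 0% of 13589 genes, while 868, 309 and 629 had an unadjusted p under 0.05 (Het against WT, Hom against WT, Hom against Het), and DESeq2 called 11, 0 and 15. None of those in the comparisons with WT was a member, and for Hom against Het Bc1 was not among them. For Het against WT the intervals of all 8 held both 0 and a level 2-fold lower, so a change of that size could not be told from none. Without WT library 1, whose fibroblast markers were lowest, Het against WT was -0.08 for Bc1 and changed sign for Dlg4 (0.08) and Nrgn (0.22). The Ddn value also changed sign, in 3 of its 12 alternatives, and reached 0.10.

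Fibroblast and macrophage markers had larger medians than the 8 genes for Het against WT in the Dnmt1 RIP, with none called. The median log2 was 2.27 over 9 fibroblast markers and 1.93 over 6 macrophage markers. It was -0.34 over 10 neuron markers, -0.26 over 6 astrocyte markers and -0.22 over 6 oligodendrocyte markers, beside -0.32 over the 8. Summed macrophage markers were at 117 and 2076 CPM in Het libraries 1 and 2, and at 114 and 414 in WT. The macrophage median thus leaned on Het library 2. Summed fibroblast markers were at 22503 and 8332 CPM in Het, and at 642 and 2205 in WT. The 20 immediate early genes had a median of 1.15, with 18 positive and Junb (2.25 ± 0.51), Fosb (2.78 ± 0.66) and Ier5 (2.74 ± 0.68) at the smallest p, against -0.32 ± 0.42 for Arc; their smallest adjusted p was 0.732.

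In m5C RIP, the fit over 6 libraries with tissue as a covariate gave negative Het against WT differences for all 8 genes, of which Bc1 passed the test. Bc1 was at -1.74 ± 0.31 (SE; 95% interval -2.35 to -1.12; edgeR adjusted p = 0.0193), 1 of 2 genes called lower, 0.0154% of 12997. Arc was at -0.68 ± 0.24 (unadjusted p = 0.00653, adjusted p = 0.923), Shank1 at -0.70 ± 0.23 (0.00483, adjusted 0.914), and Nrgn, Ddn, Camk2a, Dlg4 and Map2 at -0.57, -0.53, -0.47, -0.34 and -0.30; none of these passed. The median over the 8 was -0.55 against -0.02 for all genes.

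The Bc1 difference rested on the cortex libraries. The ratio of Het to WT in cortex alone was 0.284 (95% counting interval 0.237 to 0.338), from 171 and 520 counts, and in fibroblasts 0.547 (0.102 to 2.94), from 4 and 4. Without the cortex WT library the fitted value was -1.11 and without the cortex Het library -0.98, each with an adjusted p of 1. The call also did not hold with RLE size factors (adjusted p = 0.0720), total counts alone (0.0634), DESeq2 (1.00) or fibroblast m5C WT library 1 included (0.659).

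For Hom against WT no member passed the test, and edgeR called 0.0231% of 12997 genes. Bc1 was at -0.05 ± 0.28 (95% interval -0.62 to 0.52). The cortex ratio of Bc1 was 0.946 (0.848 to 1.06) and the fibroblast ratio 1.22 (0.179 to 7.20). Hom against Het gave 1.69 ± 0.31 for Bc1 (adjusted p = 0.0311), 1 of 2 genes called higher, 0.0154% of 12997, on the cortex counts of 914 and 171; Ier2, an immediate early gene, was the other (1.72). The call did not hold with RLE size factors (adjusted p = 0.0682), total counts alone (0.0556), DESeq2 (1.00) or fibroblast m5C WT library 1 included (0.996). The Bc1 value fell to 0.93 without the cortex Het library (adjusted p = 0.987), and without the cortex Hom library it was 1.63 (adjusted p = 0.655). In the antibody by genotype model over 9 fibroblast libraries, added after the data were seen, no member passed (all adjusted p at 1.00).

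**Figure D5:**
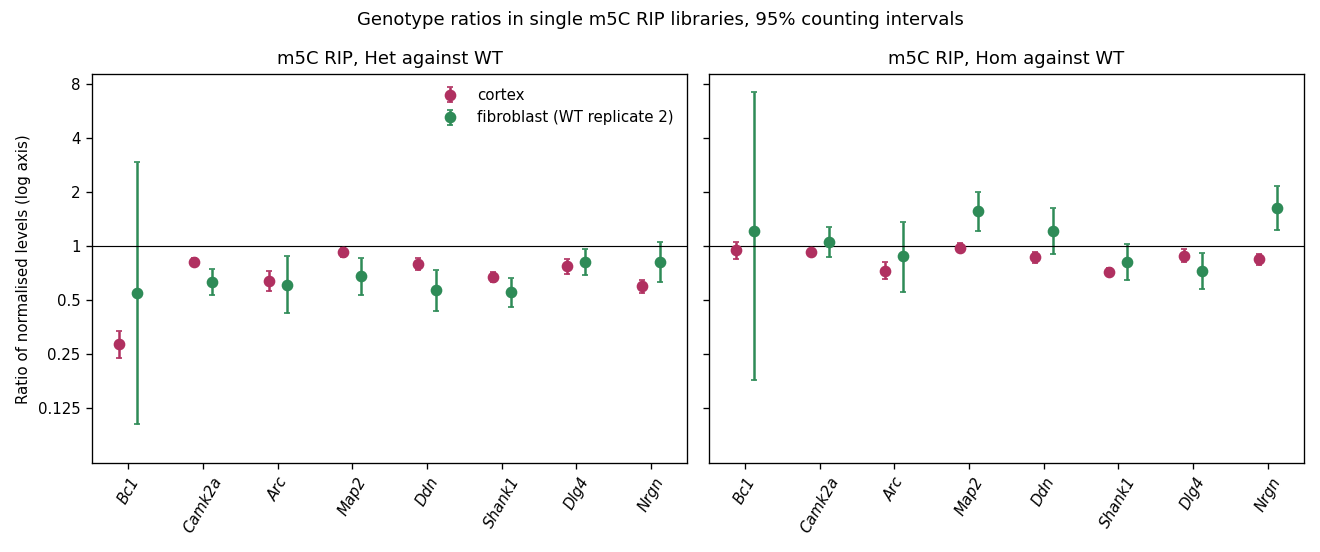
Ratio of Het to WT (left) and Hom to WT (right) in single m5C RIP libraries of cortex and fibroblasts (WT library 2) on a log axis, with 95% counting intervals. Het ratios of cortex lie below 1 for all 8 genes, Bc1 lowest at 0.284, and the fibroblast interval of Bc1 spans 1 in both panels.

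Other dendritic messenger RNAs had values in the same direction in the m5C fit. Het against WT was negative for 27 of 30, with none called and a median of -0.30. The smallest p belonged to Shank3 (-0.77 ± 0.24), Dlgap3 (-0.75 ± 0.24), Grin1 (-0.64 ± 0.25) and Camk2n1 (-0.51 ± 0.24). Shank3 and Dlgap3 encode postsynaptic scaffolds, Grin1 a glutamate receptor subunit and Camk2n1 an inhibitor of the kinase that Camk2a encodes. Immediate early genes were negative in 16 of 20 (median -0.38; Egr4 -1.42 ± 0.43, Egr1 -0.72 ± 0.24, Ier2 -0.99 ± 0.33, Nr4a1 -0.62 ± 0.25), and 31 transport and translation factors had a median of 0.06 (Pura -0.64 ± 0.24). Neuron markers had a median of -0.35, astrocyte markers -0.14 and oligodendrocyte markers -0.23; their part in the values of the 8 was not tested.

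Patterns like those of 3 members were read over 14 libraries (fibroblast m5C WT library 1 left out) among 15661 genes with a mean of at least 5 CPM, as the mean absolute difference of centred log2(CPM + 1). Among the genes nearest to Camk2a were Sparcl1, an astrocyte matrix gene, at 0.113, Snhg11 at 0.128 and Mbp, a myelin gene, at 0.136, against a median of 1.42 over all genes. Of the members, Ddn (0.190), Shank1 (0.198) and Map2 (0.201) lay close to Camk2a, Dlg4 at 0.577 and Bc1 at 1.02. Arc had Fry (0.179), Pdzd2, Gabbr2, Shank2 and Rapgef4 (0.195) nearest, with a median of 1.18. Bc1 was farther from its nearest genes, Grin2b (0.939), Rasgrp1, Cplx1, Camk4 and Slc1a2 (0.995), with a median of 2.33 over all genes. The points share libraries and depth, and no test was made.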

How the data were processed

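RNA of fibroblast and cortex libraries was read from gene counts, 1 table per library, as deposited. Per the submitters' processing notes, the authors trimmed reads with Trim Galore 0.4.1 and used HISAT2, featureCounts and mm10; no source used here gives other versions, the annotation, the strand setting or the handling of reads with several matches. Counts sum to 217173 to 4913482 per library. The tables of 6 libraries also hold 5 entries that name no gene (89.9 to 96.2% of their total), left out of sizes and tests.

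Members and lists were chosen with earlier results of these data known. Levels are CPM without 4 dominant genes, given also per kilobase of exon (union of all annotated exons of a gene, GENCODE M21 on mm10). Intervals are 95% exact, for counting error only, and a count of 0 would allow up to 3 counts. Fits were made in R 4.3.3 with edgeR 4.0.16 (filterByExpr minimum count 10 and total 15, TMM, quasi-likelihood, Benjamini-Hochberg over all genes, threshold 0.05), with DESeq2 1.42.0 as an alternative, and were tested on simulated data. Of simulated 4-fold changes, the Dnmt1 RIP fit (Hom against Het) recovered 16%, the m5C fit (Hom against Het) 88% and the antibody fit 70%. Of 16-fold changes they recovered 78, 98 and 88%, so the Dnmt1 RIP fit missed most simulated 4-fold changes. The simulation gave an unchanged gene the same mean level in all libraries of a fit, and all genes the same spread. It held no tissue difference, so recovery in the m5C fit for a gene with few fibroblast counts, such as Bc1, was not tested. Dnmt1 RIP genotypes were fitted over 6 libraries, m5C RIP over 6 with tissue, and antibodies over 9 with genotype. Tissue and input comparisons carry no test. Cortex ratios use a prior count of 2. Alternatives were other scaling, no filter, removal of dominant genes, DESeq2, leaving out each library, the replicate block and fibroblast m5C WT library 1 included. All 8 members are named, of each list up to 4 genes with the smallest p, and 5 nearest genes for Bc1, Camk2a and Arc, of which some for Camk2a are not reported here. A list of 14 polymerase III RNAs had 1 entry in the tables and is not described. The antibody by genotype interaction was added after the data were seen.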

Additional observations from a re-analysis of the deposited data

Results flagged for a closer look

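Nrgn in m5C RIP had Hom to WT ratios on opposite sides of 1 in the tissues when fibroblast WT library 2 was used. The ratio was 1.62 in fibroblasts (95% counting interval 1.22 to 2.16, 103 and 103 counts) and 0.843 in cortex (0.789 to 0.900, 2299 and 1468 counts). The fibroblast WT libraries themselves differed, at 141 CPM in library 1 and 88.4 in library 2, beside 150.2 in Hom. WT library 1 was nowhere below Hom in its counts and equalled it in 7163 detected genes. Its closeness to Hom is therefore no separate check, and the fibroblast ratio rests on WT library 2 alone. Each ratio rests on 1 library per genotype, and the difference was not tested.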

How the results depend on the processing

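Of the member values in the antibody comparison, 118 of 120 kept direction and side of the threshold under the alternatives; the other 2 are Dlg4, which passed. In the Dnmt1 RIP none of 203 recomputed values passed (smallest adjusted p 0.701); these cover all 8 members against WT, and Bc1 alone for Hom against Het. The Dnmt1 RIP calls, 0 in each comparison, became 192 (Het against WT), 13 (Hom against WT) and 113 (Hom against Het) with no filter, 11 and 15 with DESeq2 (Het against WT, Hom against Het), 2 with total counts (Hom against WT), and 0 to 38 and 0 to 35 leaving out a library, the highest in both without Het library 2. The m5C calls (2, 3 and 2) were 0, 0 and 0 with RLE, 0, 1 and 0 with total counts, 9, 11 and 6 with no filter, 0, 0 and 0 with DESeq2, 0, 0 and 0 with fibroblast WT library 1, and 0 to 16, 7 to 80 and 2 to 125 leaving out a library, each highest without cortex Hom (Het against WT equally without fibroblast Hom). For Het against WT the calls were 0 without cortex WT, 1 without cortex Het, 12 without fibroblast WT library 2 and 9 without fibroblast Het. A genotype left with 1 library is assumed to vary like the others. The antibody calls (5883) were 3296 to 6058, leaving out a library, lowest without fibroblast m5C WT library 2, and 3609 without fibroblast m5C Hom. With the replicate block the Dnmt1 RIP calls stayed at 0 in all 3 comparisons (Bc1 -0.79 for Het against WT). The log2 CPM difference of library 1 minus library 2 was correlated between genotypes across 13589 genes. The values were -0.01 (WT and Het), 0.20 (WT and Hom) and 0.06 (Het and Hom), which gave little sign that the numbers pair the libraries.

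Signs of uncalled values changed as follows, the cause not tested. Dnmt1 RIP, Het against WT: without the filter Ddn 0.031 and Nrgn 0.073; leaving out a library Bc1 -1.70 to 0.12, Ddn -0.22 to 0.10, Dlg4 -0.45 to 0.080, Nrgn -0.24 to 0.22. Hom against WT: total counts Ddn -0.38, Dlg4 -0.42, Nrgn -0.27; no filter Map2 0.0060, Shank1 0.044; leaving out a library Bc1 -1.56 to 0.18, Camk2a -0.46 to 0.15, Arc -0.34 to 0.15, Map2 -0.19 to 0.17, Ddn -0.036 to 0.29, Shank1 -0.12 to 0.15, Dlg4 -0.15 to 0.39, Nrgn -0.0013 to 0.46. Hom against Het, Bc1: total counts -0.43, no filter -0.035, leaving out a library -0.99 to 1.18. m5C RIP, leaving out a library: Het against WT Map2 -0.76 to 0.054; Hom against WT Bc1 -0.13 to 0.58, Camk2a -0.21 to 0.17, Map2 -0.15 to 0.77, Ddn -0.33 to 0.41, Nrgn -0.17 to 0.56. Hom against WT also gave Camk2a 0.013 and Ddn 0.032 with total counts, Bc1 0.0039 and Ddn 0.0055 with no filter, and Ddn 0.018 with DESeq2. Bc1 in fibroblast m5C RIP rests on 3 to 7 counts, with wide counting intervals (0.902 to 12.8 CPM in Hom).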
